A study of Homo sapiens with 6 samples.

Results

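Caspases are proteases that take cells apart during apoptosis, and most of their control lies in how they are switched on and held back. Initiator caspases are activated on scaffolds: caspase-8 (CASP8) at death receptors, where the catalytically inactive homologue c-FLIP (CFLAR) competes with it, and caspase-9 (CASP9) on the APAF1 apoptosome, which assembles when cytochrome c leaves mitochondria. Inhibitor of apoptosis proteins such as XIAP and cIAP1 (BIRC2) restrain caspases or signal around death receptors, and SMAC (DIABLO), released from mitochondria, binds and displaces them. Caspase-6 (CASP6) acts downstream, with lamins among its known substrates. In K562 cells the BCR-ABL1 kinase is known to hold this machinery off, and its inhibitor imatinib to promote apoptosis.

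The genes described here are these 8 (CASP6, CASP8, CASP9, APAF1, XIAP, BIRC2, CFLAR and DIABLO), chosen by name and found as 8 of the 35615 gene symbols in the table. All 8 passed the filter on low counts, which kept 14543 symbols. The samples were cultures of K562, a human chronic myeloid leukaemia line with erythroid features, labelled as myeloblast. Each culture of 5 M cells received, by nucleofection, 500 pmol of either the hsa-miR-92a-1-5p mimic, a synthetic double-stranded RNA, or a negative-control mimic (scramble). All cultures, controls included, received 1 µM imatinib 4 h later, and RNA was taken after another 24 h. Each group had 3 libraries labelled as biological replicates, called control 1 to 3 and miR-92a 1 to 3 below. No culture without imatinib or without a mimic was analysed here, so the comparison concerns the mimic in cells that were all under imatinib.

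Library miR-92a 1 stood apart in depth, with 0.704 M counts against 24.8 to 26 M in the other 5, or 36.0-fold fewer than their median. The 8 genes had 25 to 88 counts each in that library and 649 to 3754 in the others. Against the label's cell type, the summed level of 8 erythroid markers was 9243 to 18470 CPM (counts scaled to a common library size, per M), whereas 7 myeloblast and granulocyte markers together reached 17.03 to 29.2 CPM. Of the latter MPO was at 0 in all 6 libraries and ELANE had at most 1 count, but the others were detected. In the libraries of full depth CD33 had 350 to 524 counts, CSF3R 65 to 119 and AZU1 43 to 116. There PRTN3 had 13 to 35 and CEBPE 11 to 72 counts. Lymphoid markers summed to 1.42 to 4.81 CPM. The epithelial and stromal list (140.3 to 174 CPM) was almost all EPCAM, at 119 counts in miR-92a 1 and 3422 to 4374 counts elsewhere. Replicate 3 differed from the others in both groups: the embryonic globin HBZ had 117729 and 110235 counts in control 3 and miR-92a 3, and 44691 to 63549 in the other libraries of full depth. In RNA from whole cultures, fewer cells and less RNA per cell cannot be told apart.

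The mimic's sequence and its partner strand are shown because they fix which matches a transcript could hold. Both come from RefSeq (GRCh38.p14) and lie in the same hairpin on the plus strand of chromosome 13. They are printed 5′ to 3′ with the seed, bases 2 to 8, in capitals. The strand used in the mimic is given before the strand that usually accumulates, which has another seed.
hsa-miR-92a-1-5p (chr13:91351324-91351346): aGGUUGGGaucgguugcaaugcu
hsa-miR-92a-3p (chr13:91351361-91351382): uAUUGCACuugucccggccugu

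Matches to these seeds were sought on the sense strand of the longest annotated 3′ UTR of each gene (GENCODE v29, GRCh38). For miR-92a-1-5p the 6mer was CCAACC, the 7mers were CCCAACC and also CCAACCA, and the 8mer was CCCAACCA, each longer motif holding the 6mer. For miR-92a-3p the 6mer was TGCAAT, the 7mers were GTGCAAT and also TGCAATA, and the 8mer was GTGCAATA. None of the 8 genes held a 7mer or 8mer for the mimic's strand there, while 16.9% of the 12885 tested genes with a 3′ UTR did. APAF1, XIAP and CFLAR held a 6mer (any match, 6mers included, occurred in 27.1% of genes), and CASP6, CASP8, CASP9, BIRC2 and DIABLO held none. A shorter 3′ UTR of CFLAR, in another transcript, held 1 7mer, shown here as the only such match among the 8 genes. The pathway genes BFAR and BIRC5, described below, are set beside it with those of their longest 3′ UTR. Capitals mark the match, and the coordinates are those of the capitals.
CFLAR, other transcript (chr2:201139134-201139140, plus strand): gtaaccttaccCCCAACCctgtgctccct
BFAR, position 137 of the UTR (chr16:14667964-14667970, plus strand): tatcaaaagctCCAACCAtgtcctctccc
BFAR, position 357 of the UTR (chr16:14668184-14668190, plus strand): tcagtcccctcCCCAACCtcagtgactga
BIRC5, position 912 of the UTR (chr17:78224466-78224472, plus strand): gtgtctgtcagCCCAACCttcacatctgt

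For the partner strand, which was not the mimic named in the labels, 3 of the 8 genes held a 7mer or 8mer (20.1% of genes did): CASP9 with 2, XIAP with 2 and CFLAR with 3. CASP9 alone held an 8mer, a class found as the best match in 3.59% of genes, and it is printed here.
CASP9, position 1924 of the UTR (chr1:15491853-15491860, minus strand): gtgaacgtgctGTGCAATAgtgacacgctg

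The question was which of these transcripts differed between the mimic and its control in imatinib-treated cells. CASP8, CFLAR and CASP9 were lower in each miR-92a library than in every control library, whereas CASP6, XIAP and DIABLO differed by less than 0.1 on the log2 scale. None of the 8 passed the test across all genes (edgeR quasi-likelihood test on group alone, Benjamini-Hochberg adjusted p under 0.05), a threshold passed by 1.41% of the 14543 genes (0.976% lower and 0.433% higher). At an unadjusted p under 0.05 there were 3, all lower, in edgeR and limma-voom and 1 in DESeq2. In edgeR 13.5% of all genes passed that level in either direction (7.51% lower). Genes lower at that level numbered 1256 in limma-voom and 800 in DESeq2. Neither DESeq2 nor limma-voom called any of the 8 after adjustment. With the replicate number as a block, which uses the differences within same-numbered cultures, 1 of the 8 passed, CASP8, and 11.3% of all genes did (6.70% lower). A single gene of 8 is close to that background. Levels that did not overlap between the groups occurred in 3 of the 8, all lower, against 21.2% of all genes (11.5% lower and 9.73% higher).

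**Figure D1:**
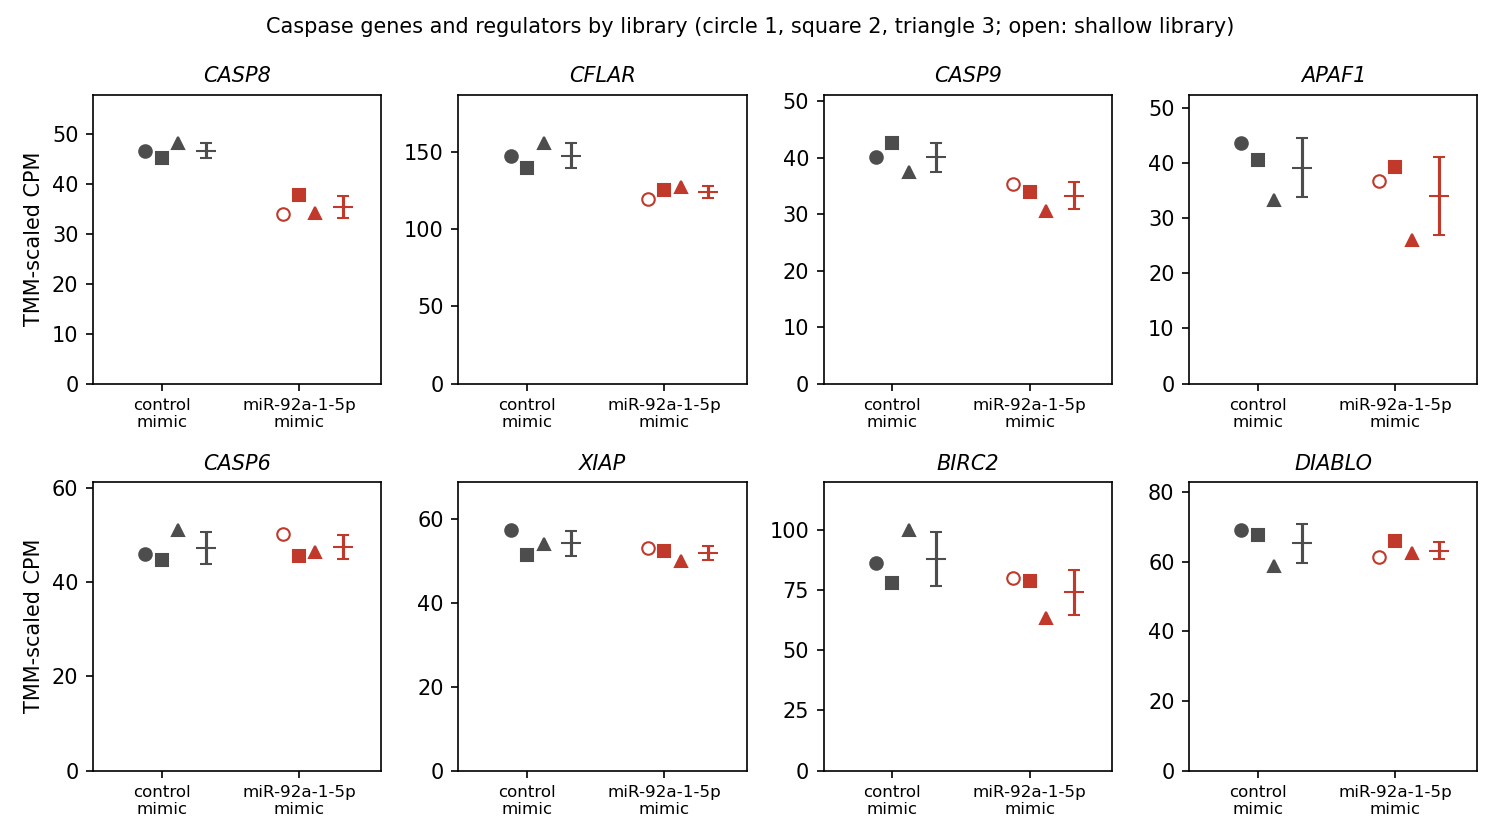
Scaled level (CPM after TMM scaling, y axis from 0) of each gene in the 3 control (grey) and 3 miR-92a-1-5p mimic (red) libraries, with mean ± SD beside the points. The open circle is the shallow library miR-92a 1; CASP8, CFLAR and CASP9 show no overlap between the groups.

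CASP8, the initiator caspase of death receptors (chromosome 2, 201233443 to 201287711, plus strand), showed the largest difference of the 8. Its level was 46.7, 45.2 and 48.2 CPM in control 1, 2 and 3 and 34.0, 37.9 and 34.2 CPM in miR-92a 1, 2 and 3. Every miR-92a library lay below every control library, and the control values were tightly grouped (46.7 ± 1.53 CPM, SD, n = 3, against 35.4 ± 2.21 CPM). The log2 fold change was -0.39 ± 0.11 (SE, 95% interval -0.63 to -0.14), or 76.4% of the control level, with an adjusted p of 0.156 in edgeR's test on group alone. Between control and miR-92a libraries of the same number (1, 2 and 3) the differences were -0.46, -0.25 and -0.50. With the replicate block CASP8 fell by 0.39 ± 0.11 on the log2 scale (adjusted p = 0.0297). That call was lost without the pair numbered 1 (adjusted p = 0.0879), 2 (0.108) or 3 (0.146). Across all alternatives its adjusted p ran from 0.0297 to 0.503, and its log2 fold change from -0.49 to -0.29. CASP8 held no match of any length to either strand in its longest 3′ UTR.

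CFLAR encodes c-FLIP, the homologue that tempers caspase-8 activation, and lies on the same arm of chromosome 2 (201116104 to 201176687, plus strand) with CASP10 between them. It was the most abundant of the 8 per library: 147, 140.0 and 156 CPM in the controls and 119.7, 125 and 127 CPM with the mimic. The groups did not overlap. The mimic libraries lay within a narrow range (coefficient of variation 3.18%), but counting error alone in miR-92a 1 was 10.7%. That range is therefore no measure of how alike the mimic cultures were. The log2 fold change was -0.24 ± 0.09 (SE, 95% interval -0.44 to -0.05; edgeR adjusted p = 0.263). CFLAR missed the threshold with the block as well (adjusted p = 0.0710), although its difference within each pair was negative, at -0.30, -0.16 and -0.29. Its exons share 1488 bases with the pseudogene IMPDH1P10 on the other strand, which had 126 counts over all libraries. On the same strand they share 445 bases with the noncoding AC007283.1, which is not among the counted symbols. Whether the authors' counting used strand is not given in the sources used here. CASP10, a further initiator caspase and neighbour of both genes, had 37.7 ± 4.50 CPM in the controls and 36.7 ± 7.85 with the mimic. Its log2 fold change was -0.13 ± 0.17 (adjusted p = 0.818).

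CASP9, the initiator of the mitochondrial pathway (chromosome 1, 15490832 to 15526534, minus strand), had 40.1, 42.6 and 37.4 CPM in the controls. With the mimic it had 35.4, 33.8 and 30.6 CPM. The groups did not overlap, but the gap between control 3 and miR-92a 1 was small. The log2 fold change was -0.29 ± 0.12 (SE, 95% interval -0.56 to -0.02; adjusted p = 0.328, or 0.118 with the block). Between control and miR-92a libraries of the same number (1, 2 and 3) the differences were -0.18, -0.33 and -0.29.

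APAF1, the scaffold on which caspase-9 is activated (chromosome 12, 98645141 to 98735433, plus strand), varied most among the replicates. Its level was 43.7, 40.7 and 33.4 CPM in the controls and 36.7, 39.4 and 26.01 CPM with the mimic. Replicate 3 was the lowest of both groups, and the groups overlapped. HBZ also set replicate 3 apart, as given above, and its part in the APAF1 and BIRC2 values was not tested. The coefficient of variation was 13.5% in the controls and 20.8% with the mimic. The log2 fold change was -0.23 ± 0.19 on group alone (adjusted p = 0.669) and -0.21 ± 0.12 with the block (adjusted p = 0.310). The block narrowed the error, and the 95% interval still included 0. Without miR-92a 3 the value was -0.02, and without miR-92a 2 it was -0.45.

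CASP6, the downstream caspase (chromosome 4, 109688622 to 109703583, minus strand), had 46.0, 44.8 and 51.1 CPM in the controls and 50.3, 45.7 and 46.5 CPM with the mimic. The groups overlapped fully, with means of 47.3 ± 3.39 and 47.5 ± 2.47 CPM. Its fitted log2 fold change was -0.01 ± 0.11, and the 95% interval of -0.26 to 0.23 bounds the difference at this depth. The sign of CASP6 turned positive, at 0.0027, when libraries were scaled by total counts alone. CASP6 exons share 105 bases with MCUB on the other strand, which had 859 counts in all.

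Among the inhibitors, XIAP, which binds active caspase-9 and effector caspases directly (chromosome X, 123859724 to 123913979, plus strand), had 57.4, 51.4 and 54.0 CPM in the controls and 53.1, 52.4 and 50.0 CPM with the mimic. The overlapping groups gave a log2 fold change of -0.07 ± 0.10 (95% interval -0.30 to 0.15; adjusted p = 0.825). With 1 library left out it ran from -0.11 without control 2 to -0.03 without control 1. There are 3 annotated processed pseudogenes of XIAP, and none of them is among the counted symbols. How reads that match both were assigned was not tested, and the XIAP value is uncertain to that extent.

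BIRC2 encodes cIAP1, a ubiquitin ligase that acts in death receptor signalling more than on caspases themselves (chromosome 11, 102347211 to 102378670, plus strand). Its level was 86.2, 78.1 and 100.1 CPM in the controls and 80.3, 78.8 and 63.4 CPM with the mimic. Control 3 was the highest and miR-92a 3 the lowest library, and the other 4 lay between them and overlapped. The log2 fold change was -0.27 ± 0.14 (95% interval -0.58 to 0.03; adjusted p = 0.430). Between control and miR-92a libraries of the same number (1, 2 and 3) the differences were -0.10, 0.01 and -0.66. The value thus rested on replicate 3: with the block it was -0.28 (adjusted p = 0.131), and without the pair numbered 3 it was -0.01 (0.997). Without the pair numbered 2 it was -0.47 and passed (adjusted p = 0.0489). Fits without a pair leave few libraries to estimate the error, so that call is a weak one. On group alone BIRC2 had -0.18 without control 3 and -0.15 without miR-92a 3.

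DIABLO, which encodes the antagonist of these inhibitors (chromosome 12, minus strand, 122207663 to 122226568), had 69.1, 67.8 and 58.8 CPM in the controls and 61.2, 65.8 and 62.5 CPM with the mimic. The miR-92a values fell inside the control range. The log2 fold change was -0.04 ± 0.10 (95% interval -0.28 to 0.20; adjusted p = 0.933). A second annotated gene entry carries the same symbol and overlaps it (122207662 to 122227534). The 2 entries share 916 and 970 exon bases with B3GNT4 on the other strand, which had 281 counts in all. On the same strand, each shares 1139 exon bases with the protein-coding gene AC048338.1, which is not among the counted symbols.

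**Figure D2:**
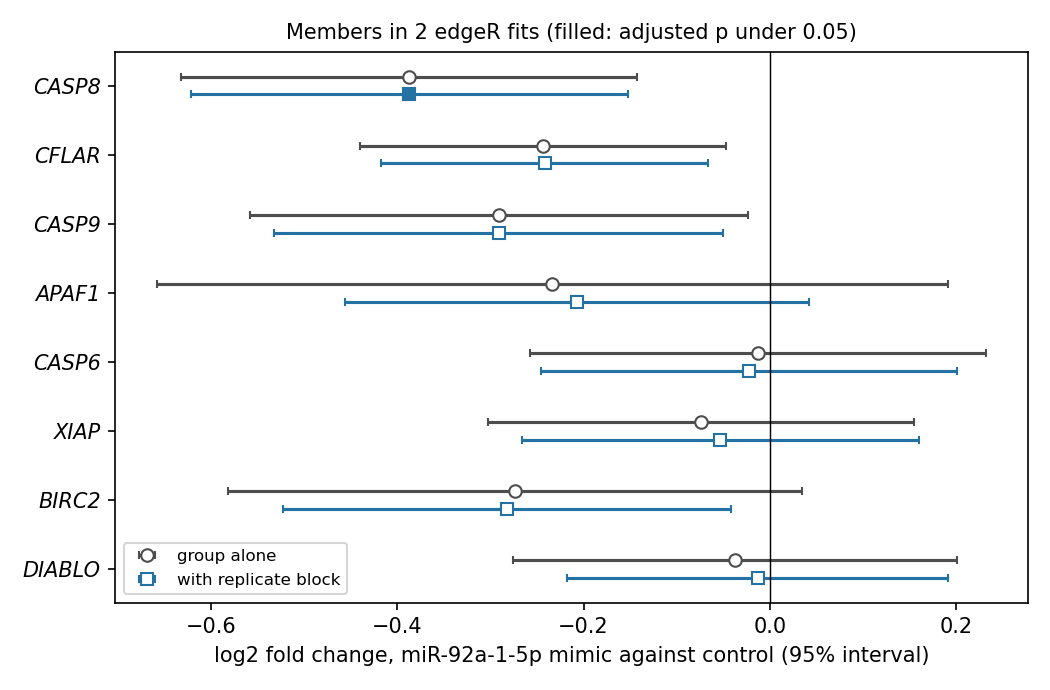
Log2 fold change of each gene (x axis, miR-92a-1-5p mimic against control) with its 95% interval in the edgeR fit on group alone (circles) and with the replicate block (squares). Only the CASP8 square is filled (adjusted p = 0.0297); the intervals of CASP6, XIAP, DIABLO and APAF1 include 0 in both fits.

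As a group the 8 genes lay on the negative side in the fit on group alone, with a median log2 fold change of -0.24. Of these, CASP6, DIABLO and XIAP lay near 0 and turned positive in 4, 2 and 1 of 16 alternatives. Over all tested genes the median was -0.01 and 51.7% were negative. The fitted values of CASP8, CASP9, BIRC2, CFLAR and APAF1 lay between -0.39 and -0.23, and those of XIAP, DIABLO and CASP6 between -0.07 and -0.01. The 95% intervals of these sets overlapped, and a split between them was not tested. APAF1 reached -0.02 without miR-92a 3, and BIRC2 -0.01 with the block without the pair numbered 3. Leaving out the shallow library miR-92a 1 gave -0.37 for CASP8, -0.31 for CASP9, -0.31 for BIRC2, -0.26 for APAF1, -0.23 for CFLAR, -0.08 for XIAP, -0.04 for CASP6 and -0.02 for DIABLO, with no gene past the threshold. In that library alone, counting error was wide: the 25 counts of CASP8 gave 34.0 CPM with an exact Poisson 95% interval of 22.0 to 50.2 CPM, which includes the control values. The 88 counts of CFLAR gave 119.7 CPM (96.0 to 147 CPM). These intervals cover counting error only.

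**Figure D3:**
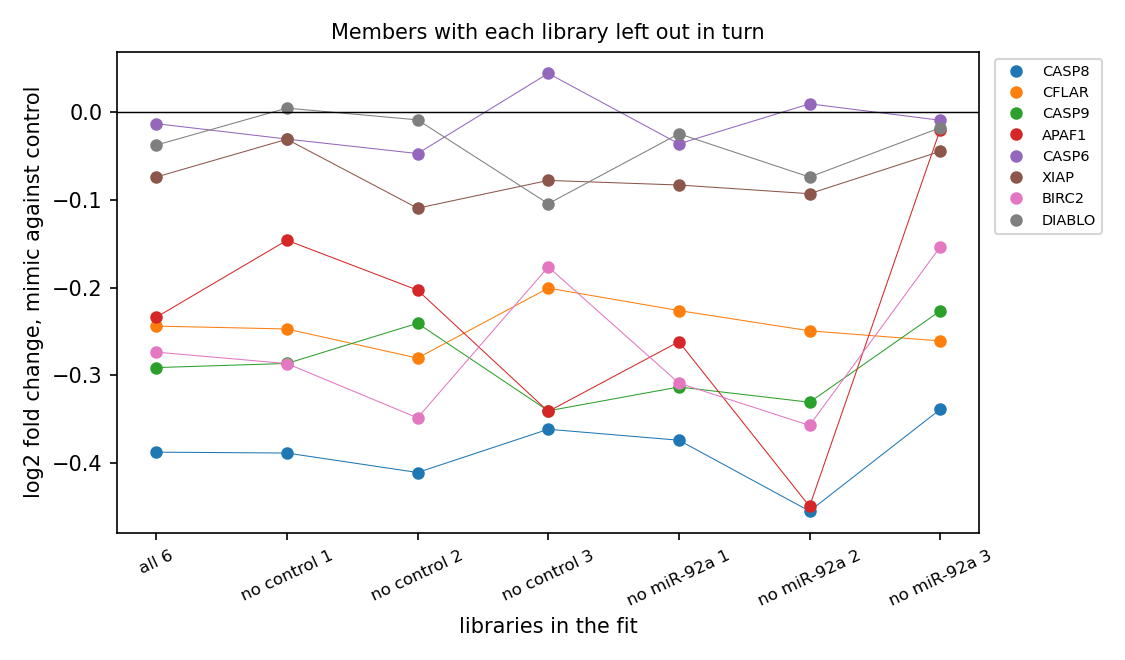
Log2 fold change (y axis, edgeR on group alone) of each gene with all 6 libraries and with each library left out in turn (x axis; lines join the values of 1 gene). CASP8 stayed between -0.45 and -0.34, whereas APAF1 moved from -0.02 without miR-92a 3 to -0.45 without miR-92a 2.

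Levels can be compared between genes only per length, and here the length decides much of the order. Per kilobase of the longest coding transcript, the control level was 30.6 ± 2.19 CPM per kb for CASP6 and 28.9 ± 2.47 for DIABLO, which did not differ beyond their spread (SD, n = 3). BIRC2 followed at 21.7 ± 2.74 and CASP8 at 15.9 ± 0.522 CPM per kb, with no overlap between these neighbours. CFLAR (10.1 ± 0.546) lay just above CASP9 (8.97 ± 0.581), XIAP had 6.31 ± 0.349 and APAF1 5.56 ± 0.752 CPM per kb, and the ranges of XIAP and APAF1 overlapped. The order of the 8 was the same in the mimic group. With the median length of the coding transcripts, CFLAR instead ranked 1 (121.7 ± 6.60 CPM per kb), since its longest transcript has 14672 bases and its median one 1214. XIAP and APAF1 were the 2 lowest under either length. Which transcripts K562 cells use was not analysed here.

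Ratios of partners within a library do not depend on scaling between libraries, and 5 were compared. The ratio of CFLAR to CASP8 counts, the decoy against its caspase, was 3.15, 3.10 and 3.24 in the controls and 3.52, 3.31 and 3.73 with the mimic. All miR-92a libraries lay above all controls, with a log2 difference of 0.15 (means 1.66 ± 0.0310 and 1.81 ± 0.0870, SD, n = 3). The exact two-sided permutation p was 0.1, the smallest that 3 against 3 libraries can give, and 0.25 after adjustment over the 5 ratios. The ratio of XIAP to CASP9, an inhibitor against its target, was 1.43, 1.21 and 1.45 in the controls and 1.5, 1.55 and 1.63 with the mimic. These did not overlap either, with a log2 difference of 0.20 and the same exact permutation p of 0.1 (adjusted p = 0.25). In miR-92a 1 the counting error of the log2 ratio was 0.327 for CFLAR to CASP8 and 0.365 for XIAP to CASP9, larger than either difference. Without that library the differences were 0.15 and 0.23. The XIAP to CASP9 difference was 0.12 without control 2, the lowest value with 1 library left out.

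The other ratios overlapped between the groups. XIAP to DIABLO, inhibitor against antagonist, differed by -0.02 on the log2 scale (exact permutation p = 0.8), and the sign turned positive without control 3 (0.05) or miR-92a 2. APAF1 to CASP9, the scaffold and its caspase, differed by 0.05 (exact permutation p = 0.8), and turned negative without control 3 (-0.01) or miR-92a 2 (-0.05). BIRC2 to DIABLO differed by -0.21 (exact permutation p = 0.5). It was 1.25, 1.15 and 1.70 in the controls and 1.31, 1.197 and 1.02 with the mimic, so that replicate 3 held both the highest and the lowest value. Without control 3 the difference was -0.04.

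**Figure D4:**
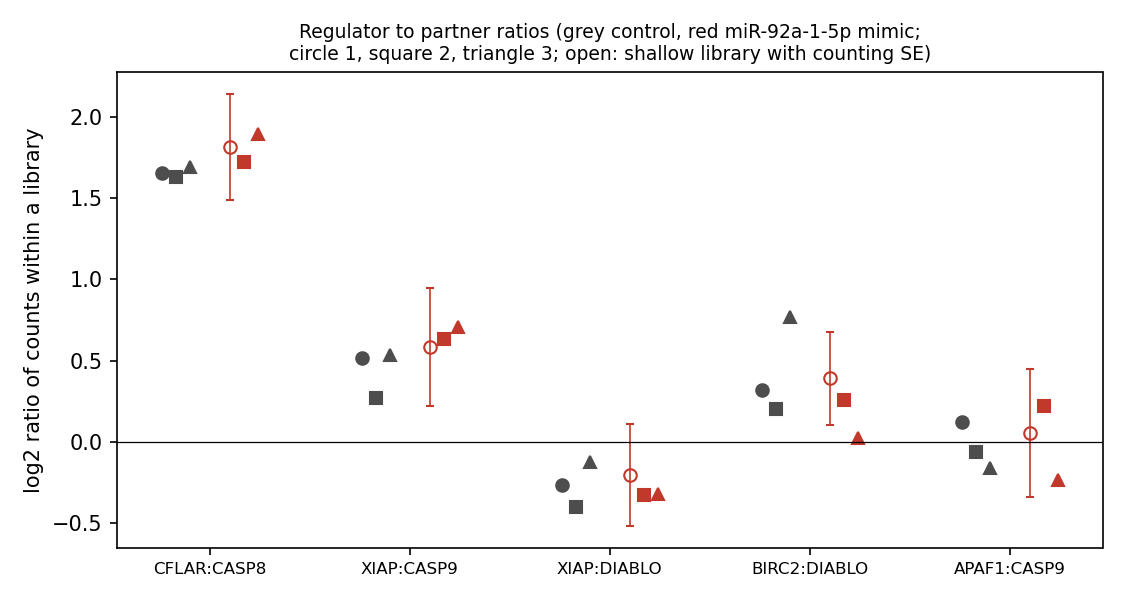
Log2 ratio of counts of 2 genes within each library (y axis) for 5 partner pairs (x axis), with controls in grey and miR-92a-1-5p mimic libraries in red. The open circle is miR-92a 1 with its counting standard error; only CFLAR:CASP8 and XIAP:CASP9 separate the groups.

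Of 48 other genes of the pathway, listed by role, 40 passed the filter. BFAR fell and none rose on group alone (1.41% of all genes called). With the block BFAR and PAK2 fell and BIRC5 rose, against 6.70% of all genes lower and 4.57% higher. The median log2 fold change of the 40 was -0.08, and 24 were negative and 16 positive. Groups did not overlap for 5 of the 40 (21.2% of all genes). The 8 genes that did not pass the filter included the death receptor FAS, with at most 9 counts in a library, and its ligand FASLG, with at most 3.

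BFAR, a membrane ubiquitin ligase reported to bind caspase-8 and BCL2 family proteins, showed a larger difference than any of the 8 genes. Its level was 59.3, 54.8 and 50.8 CPM in the controls and 28.6, 32.3 and 33.1 CPM with the mimic. The lowest control stood well above the highest miR-92a library. BFAR fell by 0.78 ± 0.11 on the log2 scale, to 58.3% of control (edgeR adjusted p = 0.0167). The call was lost without control 1 (adjusted p = 0.117), control 2 (0.103), miR-92a 1 (0.0617) or miR-92a 2 (0.0907). With the block it held without each pair (adjusted p up to 0.00346), at -0.81 to -0.68. Fits without a pair leave few libraries to estimate the error, so those calls are a weak check. BFAR held the 2 seed matches printed above in its longest 3′ UTR, and another transcript held a further 7mer (chr16:14650499-14650505).

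BIRC5 (survivin), an inhibitor of apoptosis family member that works mainly in mitosis, had 129.6, 126 and 105 CPM in the controls. With the mimic it had 151, 145 and 142 CPM. Its groups did not overlap, and it rose by 0.30 ± 0.09 on the log2 scale with the block (adjusted p = 0.0298), but not on group alone (0.27 ± 0.10, adjusted p = 0.304). The blocked call was lost without the pair numbered 1 (adjusted p = 0.0741), 2 (0.169) or 3 (0.0826). BIRC5 carried a 7mer for the mimic's strand, printed above, and its level was higher with the mimic. PAK2, a kinase that caspases cleave, had 150.6, 150.2 and 133 CPM in the controls and 136, 115 and 105 CPM with the mimic. Control 3 lay below miR-92a 1, so its groups overlapped. It fell by 0.31 ± 0.09 with the block (adjusted p = 0.0197; 0.259 on group alone), and the call was lost without the pair numbered 2 (0.365).

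The most abundant genes of several roles gave values with no call in either fit. TNFRSF10A, a receptor for the death ligand TRAIL, had 35.3 ± 4.65 CPM in the controls and 30.1 ± 2.85 with the mimic (log2 fold change -0.26 ± 0.14). The death-domain kinase RIPK1 had 58.4 ± 0.215 and 62.2 ± 7.69 CPM (0.06 ± 0.11), with its sign lost without miR-92a 3 (-0.02). The giant inhibitor of apoptosis protein BIRC6 had 210.2 ± 10.7 and 193 ± 20.5 CPM. Cytochrome c (CYCS), the trigger of the apoptosome, had 323 ± 51.3 and 278 ± 57.4 CPM, with a log2 fold change of -0.23 ± 0.17. The value of CYCS was -0.06 without miR-92a 3, -0.13 without control 1 and -0.36 without control 3. The block narrowed its error to 0.08 (adjusted p = 0.0731). PARP1, a DNA repair enzyme cleaved by caspases, had 678 ± 40.7 and 769 ± 25.9 CPM, with no overlap (0.18 ± 0.08, adjusted p = 0.404).

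**Figure D5:**
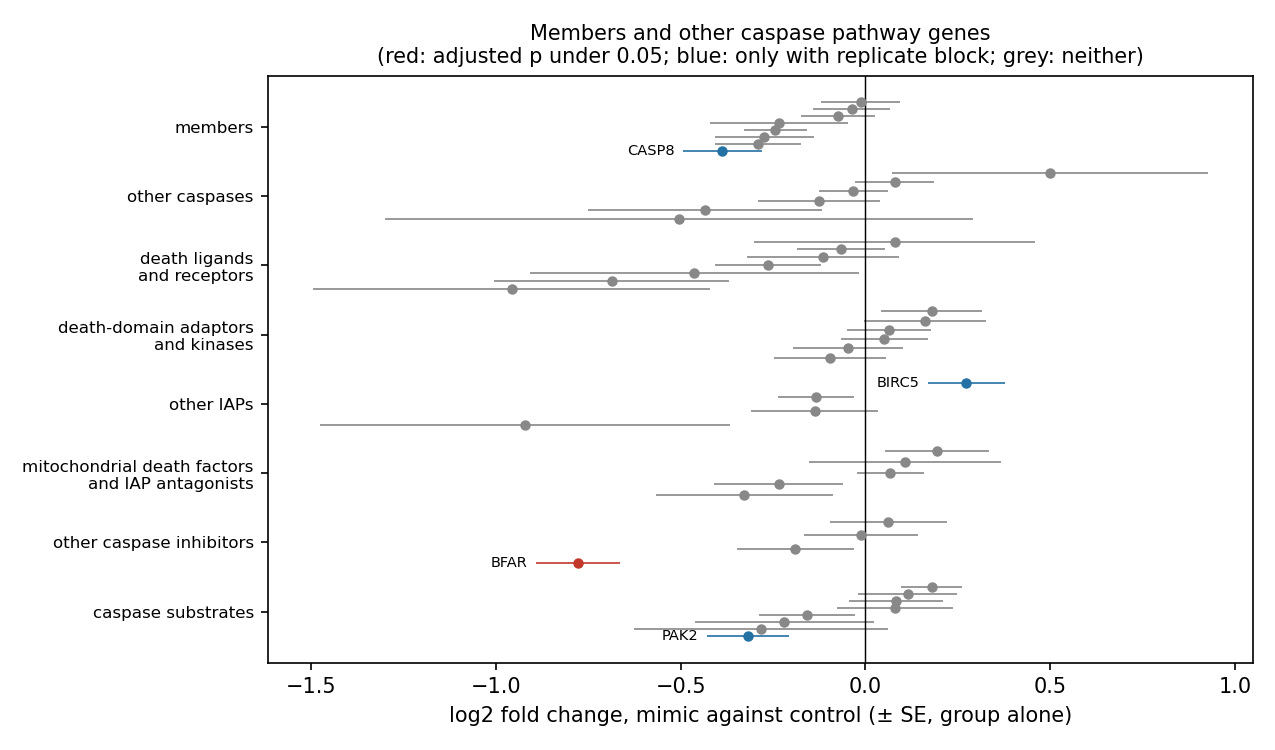
Log2 fold change ± SE on group alone (x axis) of the 8 genes ("members") and of the 40 other tested pathway genes by role (y axis). Red marks BFAR (adjusted p = 0.0167), blue marks CASP8, PAK2 and BIRC5, which passed with the replicate block alone, and grey marks the rest.

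For each of the 8, the gene with the most similar profile was sought among 7783 others with a mean of at least 20 CPM. Likeness was the root mean square difference of the centred log2 CPM over the 6 libraries. The nearest to CASP8 was PPP4R2 (0.0218), which went from 91.8 to 70.0 CPM. TGFBR1 was nearest to CFLAR (0.0199), TBC1D22B to CASP9 (0.0152) and ZBTB33 to APAF1 (0.0112). BIRC2 had the least similar neighbour, CPNE3 (0.0383). FGFR1OP was nearest to CASP6 (0.0208), SENP5 to XIAP (0.0232) and R3HDM4 to DIABLO (0.0184). With 6 libraries and this many genes, close profiles are common, and the likeness is given as a description.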

How the data were processed

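Per the labels' protocols, the authors quantified paired-end reads of total RNA with kallisto, and GRCh38 is the build in the submitters' processing notes. Of the kallisto version, annotation, strand setting and the step from transcripts to genes, nothing is given in the sources used here. Values that the authors deposited are expected counts (estimated reads per gene symbol) as whole numbers, not scaled. Totals were 0.704 to 26 M per library, so the precision of miR-92a 1 is far lower.

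Groups and replicate numbers came from the sample titles. The analysis used edgeR 4.0.16 under R 4.3.3, with filterByExpr, TMM scaling and the quasi-likelihood F-test over all 14543 genes, with Benjamini-Hochberg adjustment at 0.05. Each SE was obtained as the log2 fold change over the square root of F. Printed CPM are scaled by TMM, marker sums use total counts, and log2 CPM within pairs uses a prior count of 2. Alternatives were DESeq2 1.42.0, limma-voom (limma 3.58.1), other scaling and filters, the replicate block and libraries left out. Fits with the block and without a pair leave few libraries to estimate the error, so their adjusted p is a weak check. For libraries with the same number, the correlation of their deviations from the mean of their group was 0.15, 0.16 and 0.42 over all tested genes, and 0.37, 0.48 and 0.63 over the 4829 with a mean of at least 1000 counts. Since each pair exceeded 0.1, the block is given where it changes a call. The labels do not say what a number shares, and over the abundant genes control 1 correlated more with miR-92a 2 (0.52), so the numbers set replicate 3 apart more than replicates 1 and 2. Code was tested on simulated data. Seed matches used Python 3.11.15 with pandas 2.3.3, and figures matplotlib 3.10.9.

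The 8 genes, the pathway and marker lists and the tests were chosen with earlier results of these data known. Genes named are the 8, other pathway genes past the threshold in either fit, the most abundant of each role, and the nearest profiles; some of these results are not reported here. CASP10, FAS and FASLG, and those named under other observations, were added after their values were seen.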

Additional observations from a re-analysis of the deposited data

How the results depend on the processing

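Of 128 values of the 8 genes under alternatives, 119 kept their direction and side of the threshold. With the replicate block 975 genes were lower and 664 higher, against 142 and 63 without it, and DESeq2 gave 246 and 139. Leaving out 1 library gave 56 to 148 lower and 14 to 53 higher, and leaving out pair 1, 2 or 3 with the block gave 751, 549 and 866 lower and 486, 285 and 554 higher. Of the 8 genes 1 was lower with the replicate block (0 to 1 without a pair), and of the other pathway genes 2 were lower (1 to 2) and 1 higher (0), while leaving out 1 library on group alone gave 0 to 1 lower. The block changed no other call among the 8 genes and the other pathway genes. Values called in no fit changed sign around 0. CASP6 reached 0.0027 with total counts alone, 0.0516 with the block without pair 3, 0.0443 without control 3 and 0.0096 without miR-92a 2 (-0.0470 to 0.0443 with 1 library left out). XIAP reached 0.0016 with the block without pair 3. DIABLO reached 0.0285 with the block without pair 1 and 0.0048 without control 1 (-0.104 to 0.0048). RIPK1 reached -0.0595 with the block without pair 3 and -0.0177 without miR-92a 3 (-0.0177 to 0.178). The XIAP to DIABLO difference ran from -0.0894 to 0.0491 with 1 library left out (0.00029 without miR-92a 2), and APAF1 to CASP9 from -0.0532 to 0.173. With all coding transcripts, 1 of the 8 genes held a 7mer for miR-92a-1-5p, against 0. The causes were not tested, except that fewer libraries entered the fits without one. Depth limits miR-92a 1, where 3 counts stand for 4.08 CPM, against 0.115 to 0.125 CPM elsewhere.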

Other observations

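DFFA and CASP4 differed between replicate 3 and the other replicates in both groups. DFFA, the inhibitor subunit of the nuclease that cuts DNA in apoptosis, had 117 and 115 CPM in control 1 and 2 and 68.2 CPM in control 3. With the mimic it had 91.2, 104 and 65.1 CPM in replicate 1, 2 and 3. CASP4, an inflammatory caspase, had 7.10, 5.61 and 1.497 CPM in the controls and 2.72, 6.11 and 0.681 CPM with the mimic, where miR-92a 1 had only 2 counts. What sets the replicate 3 cultures apart was not tested.

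HTRA2 and ENDOG varied more among the miR-92a libraries than among the controls. HTRA2, a mitochondrial protease that also binds inhibitors of apoptosis, had 70.2 ± 2.16 CPM in the controls (SD, n = 3). With the mimic it had 58.5 CPM in miR-92a 1, on 43 counts, and 78.2 and 93.6 CPM in miR-92a 2 and 3. ENDOG, a mitochondrial nuclease, had 24.0 ± 1.25 CPM in the controls. It had 8.16 CPM in miR-92a 1, on 6 counts, and 27.1 and 31.1 CPM in miR-92a 2 and 3. XAF1, which binds XIAP, had 7.34, 7.78 and 11.4 CPM in the controls (8.84 ± 2.22 CPM), where control 3 alone stood apart. With the mimic it had 7.32 ± 0.856 CPM. Since miR-92a 1 had only 6 counts of XAF1, that narrow spread is no measure of how alike the mimic cultures were.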
